A study of Mus musculus with 36 samples.

Results

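The genes described here are 9 genes of glycogen metabolism in the mouse liver, Ppp1r3b, Ppp1r3c, Ppp1r3d, Gys2, Pygl, Gbe1, Gyg, Phka2 and Phkg2. They were chosen by gene name, after Ppp1r3c and Gys2 had set the quercetin mice apart from the controls on these same arrays, so that the quercetin and control values below describe the genes and test nothing. All 9 are among the 13042 genes with a probe in the authors' table of expressed spots. The array carries 15 probes for them, and 12 of these are in the table.

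Glycogen is the branched glucose polymer in which the liver stores glucose after a meal and from which it releases glucose in fasting. Glycogenin starts the chain, glycogen synthase lengthens it, the branching enzyme adds branches, and glycogen phosphorylase takes glucose units off. Phosphorylase kinase switches phosphorylase on, whereas protein phosphatase 1 switches it off and switches synthase on, when a glycogen-targeting subunit holds the phosphatase on the glycogen particle.

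Liver RNA came from 36 adult male mice, each hybridized to an array of its own. The sample labels give the strain as C57BL/6J, and the study's methods give the substrain C57BL/6JOlaHsd. All mice ate a mild-high-fat diet with 30 energy % fat, first during an adaptation phase of 3 weeks according to the sample labels, which is longer than the study's methods state. In the baseline group (n = 12) the mice were killed at the end of this phase. The control group (n = 12) stayed on the diet for 12 more weeks, and the quercetin group (n = 12) ate the diet with 0.33% w/w quercetin, a plant flavonol, for the same 12 weeks. Each mouse had fasted for at least 2 hours when it was killed. The baseline mice were younger and had eaten the diet for a shorter time than both other groups, and age and time on the diet cannot be told apart.

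The Cy5 channel of every array held the RNA of a single mouse and the Cy3 channel a pool of all samples. The values are the log2 Cy5 signals of the authors' table, which were corrected for the Cy3 signal and have the same median on every array. A value says how a gene differs between mice, and the levels of different probes were not compared with each other. In whole liver, fewer cells of a type and less RNA per cell cannot be told apart. The share of spots well above background in Cy5 was 56.4% to 67.4% on the baseline and control arrays and 58.1% to 96.7% on the quercetin arrays, where the array of quercetin replicate 2 stood apart at the upper end. All 6 hepatocyte markers were in the table, and their mean log2 value per mouse spanned 15.6 to 16.24 among baseline mice, 15.84 to 16.22 among controls and 15.65 to 16.28 with quercetin. Cps1 was called lower in both 12-week groups than at baseline, and Ttr lower in the quercetin group only. That difference between them was not tested. The 6 markers did not move as a set, since 4 lay above 0 for control minus baseline (median 0.044) and 3 for quercetin minus baseline (median -0.016). Of the 4 skeletal muscle markers only Acta1 was in the table.

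Groups were compared with limma, and a gene is called when the adjusted p of its brightest probe, over all 21781 probes, is under 0.05. Of the 9 genes 4 were called between the control and the baseline group, 2 higher (Ppp1r3b and Ppp1r3c) and 2 lower (Gyg and Phka2) in the control group. Among all 13042 genes 21.2% were called, 13.4% higher and 7.75% lower. Between the quercetin and the baseline group 2 of the 9 were called, Gyg and Phka2, both lower in the quercetin group, against 12.8% of all genes, 7.42% higher and 5.41% lower. Between the quercetin and the control group, the comparison behind the choice of the genes, 1 of the 9 was called (Ppp1r3c), and 0 with the slide as a fixed block or with the replicate block. Among all genes 2.25% were called, and nothing is read from this count, since the choice of the genes used the same values. The median log2 difference of the 9 genes was 0.02 for control minus baseline, -0.13 for quercetin minus baseline and -0.04 for quercetin minus control, and that of all genes was 0.02, 0.02 and -0.0045. The comparisons share mice in pairs: those with the baseline group share the baseline mice with each other, and each shares its control or quercetin mice with the comparison behind the choice of the genes. Their values stand side by side and are not independent. The 4 genes called between control and baseline include Ppp1r3c, whose control values were used in the choice of the genes.

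**Figure D1:**
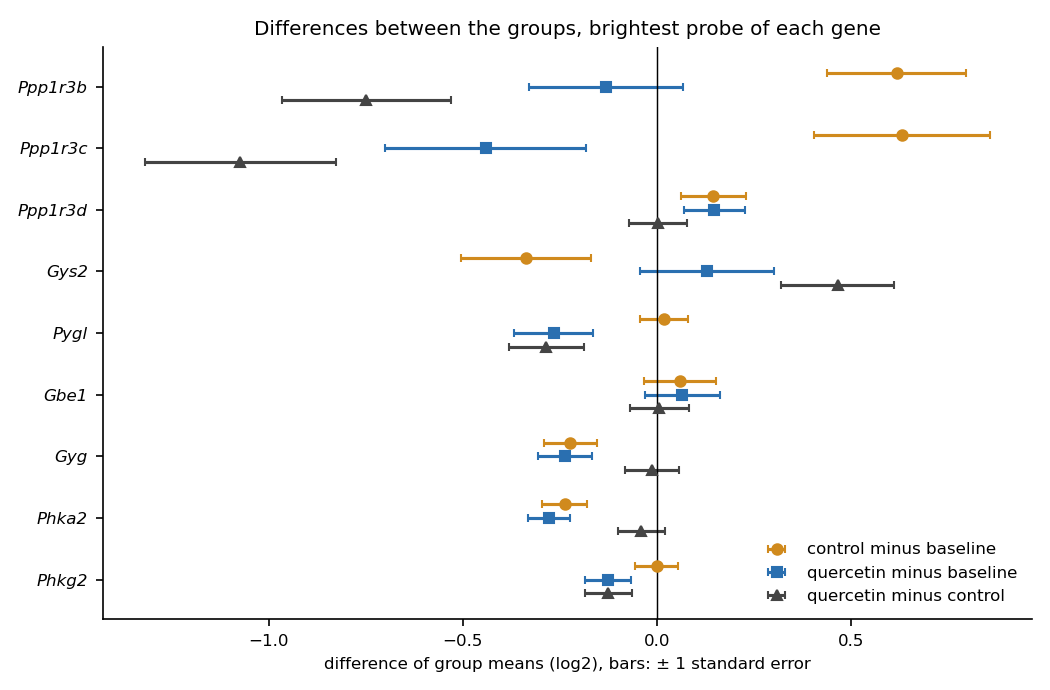
Difference of group means for the brightest probe of each gene (horizontal axis, log2; bars, ± 1 standard error from limma, 12 mice per group), for control minus baseline (circles), quercetin minus baseline (squares) and quercetin minus control (triangles). Ppp1r3b and Ppp1r3c lie at 0.62 and 0.63 in control minus baseline and below 0 in the other comparisons, whereas Gyg and Phka2 lie between -0.22 and -0.28 in both comparisons with the baseline group.

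Ppp1r3c encodes PTG (protein targeting to glycogen), a subunit that brings protein phosphatase 1 to glycogen. Its brighter probe (A_52_P30451, chromosome 19, 36797111 to 36797170 on the minus strand of mouse build mm8) had a log2 value from 10.01 to 11.85 in the baseline group, with a median of 10.77. In the control group it ran from 10.25 to 12.13 with a median of 11.58. In the quercetin group it ran from 9.35 to 11.62 with a median of 10.55. The groups overlapped, although 11 of 12 quercetin mice lay below the control median and 4 of 12 lay below every control mouse. The mean was 10.83 ± 0.65 (SD, n = 12) in the baseline, 11.46 ± 0.56 (SD, n = 12) in the control and 10.39 ± 0.74 (SD, n = 12) in the quercetin group. The control mean exceeded the baseline mean by 0.63 (standard error 0.23, limma adjusted p = 0.0459), a 1.55-fold difference, with 11 of 12 control mice above the baseline median. This call sat at the threshold and was lost under 7 of 11 alternatives, with an adjusted p from 0.0105 to 0.133 over all 11. The 7 were loess with and without the filter, the scanner software's processed signals, quantile normalization, the slide as a fixed block, all 36 arrays in one fit and the methods' t-test. The choice of Ppp1r3c used its control values, which lay above those with quercetin. Its p-value for control minus baseline is therefore not independent of the choice. Quercetin minus baseline was -0.44 (standard error 0.26) and did not pass the test (limma adjusted p = 0.289). The quercetin minus control difference was -1.07 (standard error 0.25), the quercetin mean being 2.1-fold lower.

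The dimmer probe of Ppp1r3c (A_51_P521010, chromosome 19, 36798441 to 36798500) lay 3.33 times above background, against 43.99 times for the brighter probe. The deviations of the mice from their group means at both probes had a Pearson r of 0.86 over 36 mice. Its differences were smaller, 0.14 for control minus baseline (limma adjusted p = 0.533), -0.37 for quercetin minus baseline (limma adjusted p = 0.0915) and -0.51 for quercetin minus control. The table holds no background subtraction, and differences of dim probes are compressed in it.

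The promoters of 7 of the 9 genes are in the RefSeq promoter table for mouse build GRCm38.p6, and those of Gys2 and Ppp1r3b were not used here. The 250 bases before each start were searched on both strands for the clock-factor motifs E-box (CACGTG) and D-box (TTATGTAA) and for the cAMP response element (TGACGTCA). These motifs were sought because clock genes differed between the quercetin and the control group, as described below. The E-box was present in 2 of the 7 windows, those of Ppp1r3c and Ppp1r3d, which are printed 5′ to 3′ with the E-box in capitals, and in 6.02% of 32851 promoter windows of the same length. The D-box (0.819% of all windows) and the cAMP response element (1.55%) were in 0 of the 7. The Ppp1r3c window is chr19:36736605-36736854 on the minus strand, with the E-box beginning 104 bases before the start. The Ppp1r3d window is chr2:178414464-178414713 on the minus strand, with the E-box beginning 226 bases before the start.
Ppp1r3c: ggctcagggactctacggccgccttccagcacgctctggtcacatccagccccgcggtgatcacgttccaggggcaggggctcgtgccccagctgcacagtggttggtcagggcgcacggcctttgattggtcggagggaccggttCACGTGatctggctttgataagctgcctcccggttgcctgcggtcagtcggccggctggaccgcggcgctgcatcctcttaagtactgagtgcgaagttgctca
Ppp1r3d: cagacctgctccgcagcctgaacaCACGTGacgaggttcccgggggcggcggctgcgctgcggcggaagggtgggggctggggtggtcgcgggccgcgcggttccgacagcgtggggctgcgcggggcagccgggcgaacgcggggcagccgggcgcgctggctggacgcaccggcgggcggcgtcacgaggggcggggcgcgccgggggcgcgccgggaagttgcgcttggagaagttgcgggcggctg
A match of letters is a description of these windows. Ppp1r3c had the largest quercetin minus control difference of the 9 genes, and that of Ppp1r3d was near 0. The 3 motifs share no full match with each other.

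Ppp1r3b encodes GL, the main glycogen-targeting subunit of the liver. Its probe (A_51_P138933, chromosome 8, 36855684 to 36855743, plus strand, mm8) had a log2 value from 9.68 to 11.12 in the baseline group (median 10.4), from 9.84 to 11.58 in the control group (median 11.14) and from 9.5 to 11.22 in the quercetin group (median 10.11). Of 12 control mice 7 lay above every baseline mouse, and 5 of 12 quercetin mice lay below every control mouse. The control mean was higher than the baseline mean by 0.62 (standard error 0.18, limma adjusted p = 0.0152), a 1.53-fold difference, and this gene was called under all 11 alternatives. The quercetin and the baseline group did not differ beyond their spread, with a difference of -0.13 (standard error 0.2, limma adjusted p = 0.728). Against the controls the quercetin difference was -0.75 (standard error 0.22), the quercetin mean being 1.68-fold lower, with 11 of 12 quercetin mice below the control median. The 6 lowest quercetin mice lay between 9.5 and 9.88 and the other 6 between 10.35 and 11.22.

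Ppp1r3d encodes another targeting subunit, which is found in many tissues. Its probe (A_51_P169516, chromosome 2, 178340697 to 178340756, mm8) lay 2.86 times above background and was well above background on 12 of 12 arrays of each group. The mean log2 value was 6.99 ± 0.22 (SD, n = 12) in the baseline, 7.14 ± 0.21 (SD, n = 12) in the control and 7.14 ± 0.17 (SD, n = 12) in the quercetin group. Neither comparison with the baseline group passed the test, with limma adjusted p of 0.214 for control minus baseline (0.15) and 0.227 for quercetin minus baseline (0.15). Among the 3 targeting subunits, the quercetin minus control differences were therefore -0.75, -1.07 and 0.0027.

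**Figure D2:**
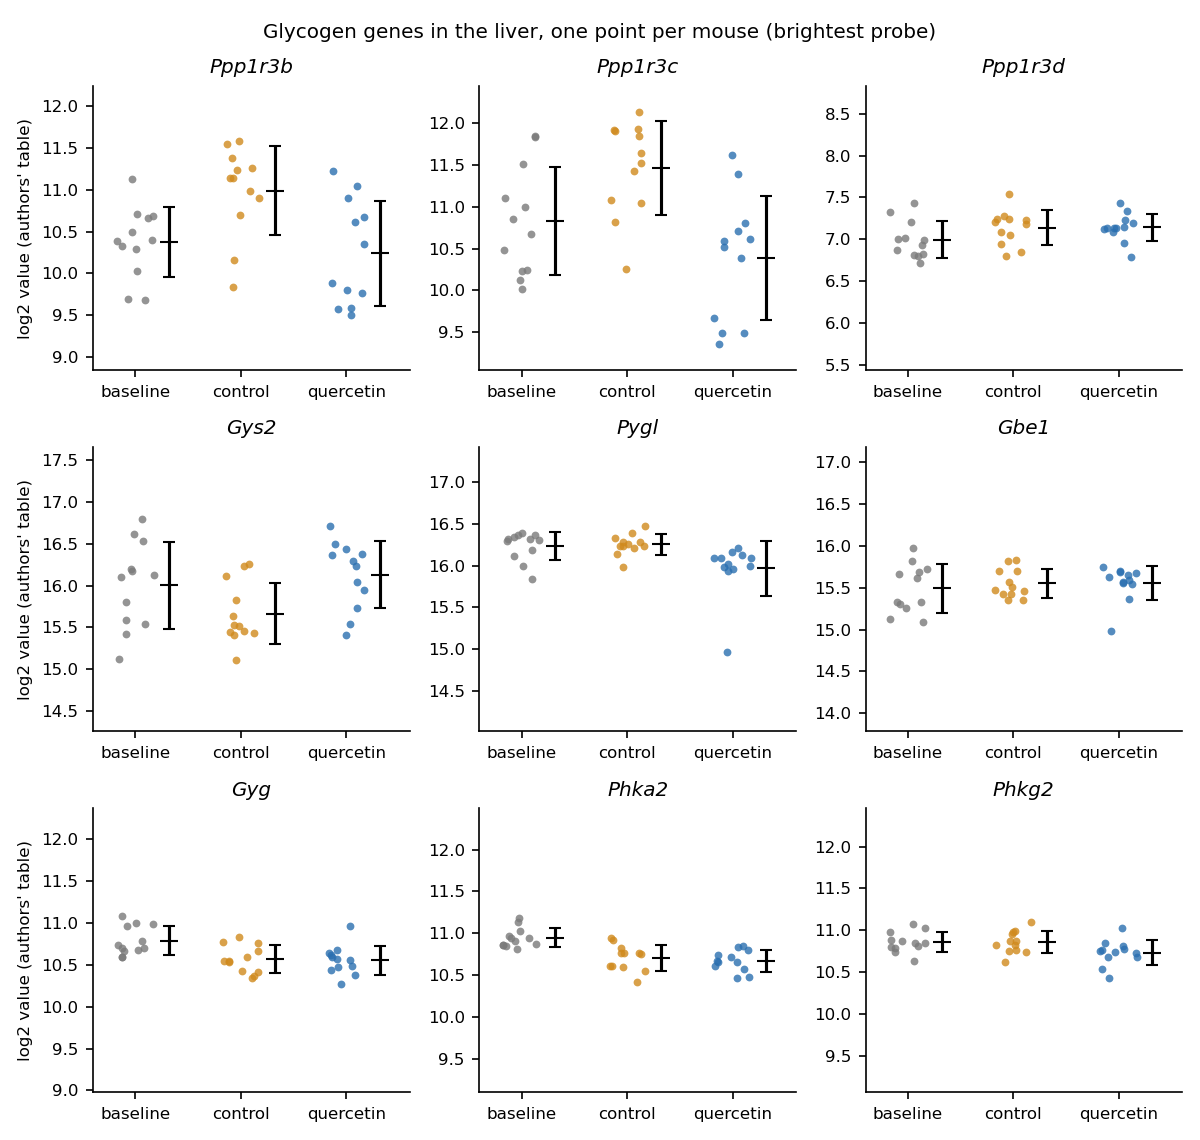
Log2 value in the authors' table (vertical axis, the same height in log2 units in every panel) of the brightest probe of each gene, by group. Points are mice, 12 per group, and the bar beside them gives the mean ± SD. The groups overlap in every panel, and a single quercetin mouse lies at 14.96 for Pygl and at 14.99 for Gbe1.

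Gys2 encodes the liver glycogen synthase, which adds glucose to the growing chain. Its probe (A_51_P440315, chromosome 6, 142379908 to 142379967, minus strand, mm8) was bright, at 1126 times background, and was saturated on 0 arrays. Its log2 value ran from 15.12 to 16.8 in the baseline group (median 16.11), from 15.12 to 16.26 in the control group (median 15.52) and from 15.42 to 16.71 in the quercetin group (median 16.26). The baseline range covered all 12 quercetin mice and 11 of 12 control mice. The means were 16 ± 0.52 (SD, n = 12), 15.67 ± 0.36 (SD, n = 12) and 16.13 ± 0.4 (SD, n = 12) in that order of groups. Neither comparison with the baseline group passed the test. Control minus baseline was -0.34 (standard error 0.17, limma adjusted p = 0.149), and it was called only with loess on the scanner signals (-0.41, adjusted p = 0.0394), out of 11 alternatives. Quercetin minus baseline was 0.13 (standard error 0.17, limma adjusted p = 0.685). Quercetin minus control was 0.47 (standard error 0.15), a 1.38-fold difference, with 11 of 12 quercetin mice above the control median and 6 of 12 above every control mouse.

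Gyg encodes glycogenin, the protein primer of glycogen. Its probe (A_51_P240019, chromosome 3, 20314169 to 20314228, mm8) had a mean log2 value of 10.79 ± 0.17 (SD, n = 12) in the baseline, 10.57 ± 0.17 (SD, n = 12) in the control and 10.56 ± 0.17 (SD, n = 12) in the quercetin group. Both 12-week groups were lower than the baseline group. Control minus baseline was -0.22 (standard error 0.07, limma adjusted p = 0.0213), with 7 of 12 control mice below every baseline mouse, and quercetin minus baseline was -0.24 (standard error 0.07, limma adjusted p = 0.0265), with 7 of 12 quercetin mice below every baseline mouse. With the slide as a fixed block, control minus baseline was -0.19 and no longer called (adjusted p = 0.0809). Quercetin minus control was -0.01.

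Gbe1 encodes the branching enzyme. Its probe (A_51_P273684, chromosome 16, 70452275 to 70452334, mm8) lay 835.2 times above background. The mean log2 value was 15.49 ± 0.29 (SD, n = 12) in the baseline, 15.55 ± 0.17 (SD, n = 12) in the control and 15.56 ± 0.21 (SD, n = 12) in the quercetin group. Control minus baseline was 0.06 (standard error 0.09, limma adjusted p = 0.676), quercetin minus baseline 0.07 (standard error 0.1, limma adjusted p = 0.718) and quercetin minus control 0.0063.

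Pygl encodes the liver glycogen phosphorylase, which releases glucose 1-phosphate from the chain. Its brighter probe (A_51_P452779, chromosome 12, 71109473 to 71109532, minus strand, mm8) lay 1266 times above background. The log2 value ran from 15.84 to 16.39 in the baseline group, from 15.98 to 16.47 in the control group and from 14.96 to 16.21 in the quercetin group, with medians of 16.31, 16.25 and 16.05. All 12 quercetin mice lay below the median of the baseline and below that of the control group. The lowest value belonged to quercetin replicate 4, which differed from the mean of its group by -1.01 and whose array had 58.1% of its spots well above background, the lowest value with quercetin. Control minus baseline was 0.02 (standard error 0.06, limma adjusted p = 0.857). Quercetin minus baseline was -0.27 (standard error 0.1, limma adjusted p = 0.0848) and -0.17 without quercetin replicate 4 (adjusted p = 0.0529), an exclusion chosen after the values had been seen. It was called under 5 of 13 alternatives (loess, processed signals, quantile normalization, replicate block and all 36 arrays in one fit), with an adjusted p from 0.0268 to 0.143 over all 13. Quercetin minus control was -0.28, and -0.19 without quercetin replicate 4. The dimmer probe (A_52_P320181, chromosome 12, 71122900 to 71122959, 4.97 times above background) gave -0.25 for control minus baseline (limma adjusted p = 0.108) and -0.4 for quercetin minus baseline, which was called (limma adjusted p = 0.0423). The deviations of the mice at both probes had a Pearson r of 0.296, against 0.86 for the probes of Ppp1r3c.

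Phka2 encodes the alpha subunit of phosphorylase kinase that predominates in liver and carries a regulatory role. Its bright probe (A_52_P671916, chromosome X, 155934330 to 155934389, plus strand, mm8) ran from 10.81 to 11.18 in the baseline group, from 10.42 to 10.94 in the control group and from 10.46 to 10.85 in the quercetin group. Of 12 control mice 9, and of 12 quercetin mice 10, lay below every baseline mouse. Control minus baseline was -0.24 (standard error 0.06, limma adjusted p = 0.00506) and quercetin minus baseline -0.28 (standard error 0.05, limma adjusted p = 0.00137), and both were called under every alternative tried. The quercetin and control means differed by -0.04. The dimmer probe in the table (A_52_P657963, 2.52 times above background) gave -0.23 (limma adjusted p = 0.0378) and -0.2 (limma adjusted p = 0.113) against the baseline group, with a Pearson r of 0.204 between the deviations at both probes. The probes A_51_P368950 and A_52_P187217 are not in the table and lay 1.53 and 1.85 times above background, the first of them well above background on 1, 1 and 3 of 12 arrays in the baseline, control and quercetin group. The second was well above background on 9, 5 and 7 of 12. Mean log2 ratios of Cy5 to Cy3 after loess were 0.096, 0.028 and 0.001 in these groups for the first probe. For the second they were 0.032, -0.024 and -0.001.

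Phkg2 encodes the catalytic subunit of the liver phosphorylase kinase. Its probe in the table (A_51_P235909, chromosome 7, 127374228 to 127374287, mm8) had a mean log2 value of 10.86 ± 0.12 (SD, n = 12) in the baseline, 10.86 ± 0.13 (SD, n = 12) in the control and 10.73 ± 0.15 (SD, n = 12) in the quercetin group. Neither comparison with the baseline group passed the test, with limma adjusted p of 0.995 for control and 0.166 for quercetin (-0.13, standard error 0.06). Of 12 quercetin mice 11 lay below the control median, and quercetin minus control was -0.12. Its other probe, A_52_P19446, is not in the table and lay 2.17 times above background. It was well above background on 12, 11 and 11 of 12 arrays in the baseline, control and quercetin group. Its mean log2 ratio of Cy5 to Cy3 after loess was 0.065 (SD 0.094), 0.11 (SD 0.147) and -0.086 (SD 0.105) in these groups, and no test of it is given here.

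The arrays lay on 9 slides of 4 arrays, and every slide held arrays of all 3 groups. Within slides, quercetin minus control for Ppp1r3c was below 0 on 8 of 9 slides, with a median of -0.98 and a range from -2.41 to 1.14. For Ppp1r3b it was below 0 on 7 of 9 slides (median -1.03, range -1.71 to 0.77), and for Gys2 it was above 0 on 7 of 9 (median 0.8, range -0.48 to 1). Pygl was below 0 on 8 of 9 slides, with a median of -0.28. With the slide as a fixed block 0 of the 9 genes were called in this comparison, against 210 of 21781 probes, and Ppp1r3c then had a difference of -1 on the log2 scale. For control minus baseline, Ppp1r3b was above 0 on 8 of 9 slides, Ppp1r3c on 6 of 9, and Gyg and Phka2 were each below 0 on 8 of 9. For quercetin minus baseline, Phka2 was below 0 on 9 of 9 slides and Gyg on 8 of 9.

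**Figure D3:**
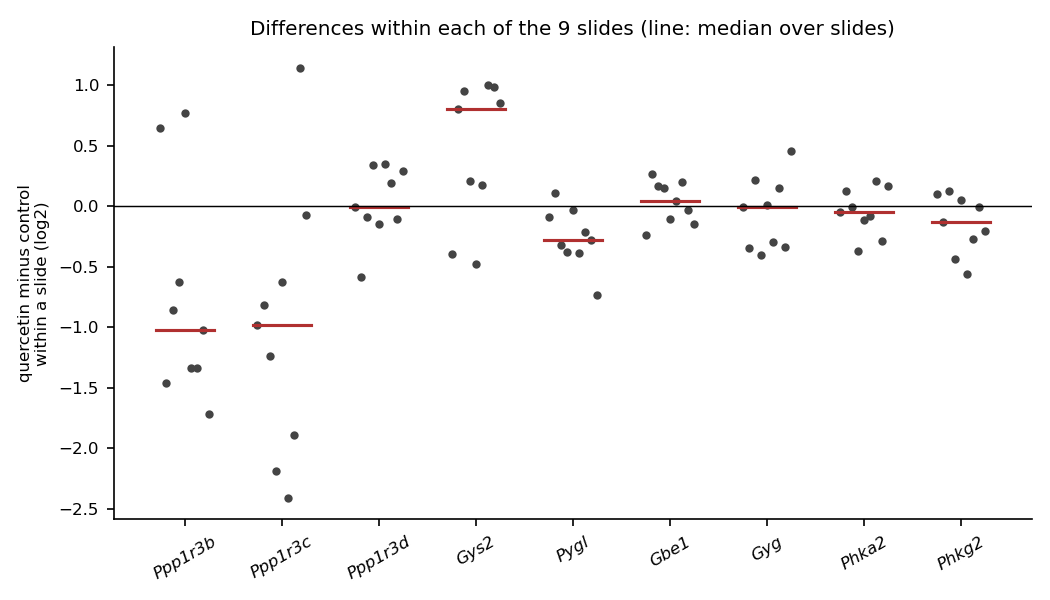
Quercetin minus control within each of 9 slides (vertical axis, log2, brightest probe), where each point is the difference of the group means on a slide and the line is the median over slides. Ppp1r3b, Ppp1r3c and Gys2 spread over more than 1 log2 unit between slides, with medians of -1.03, -0.98 and 0.8, while Gbe1, Gyg and Phka2 have medians between -0.049 and 0.046.

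Of 28 other genes of glycogen and glucose 6-phosphate handling, 21 were in the table. Between the control and the baseline group limma called 1 of them, Ppp1cb, a catalytic subunit of protein phosphatase 1, which was higher in the control group by 0.29 (standard error 0.07, adjusted p = 0.00282). Between the quercetin and the baseline group it called 2. Ppp1cb was higher in the quercetin group by 0.26 (standard error 0.07, adjusted p = 0.0124), and Gckr, which encodes the regulator that holds glucokinase inactive, was lower (-0.23, standard error 0.06, adjusted p = 0.0134). Between the quercetin and the control group limma called 0 of the 21, as did the methods' t-test. An unadjusted p under 0.05 was found for 3, and the share of all genes with such a p is not given here. Among all genes 21.2% were called between control and baseline, 12.8% between quercetin and baseline and 2.25% between quercetin and control. The medians of the list were -0.04 for control minus baseline, 0.01 for quercetin minus baseline and 0.04 for quercetin minus control. The targeting subunit Ppp1r3g, named here after its values were seen, had the widest spread of the list, with a quercetin minus control difference of 1.06 (standard error 0.48, adjusted p = 0.285) and an SD between mice of 0.8 to 1.4.

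The spread between mice of the same group was not used to choose the genes, and the deviations from the group means were compared over 36 mice for all 36 pairs of the 9 genes. By Pearson's r 3 of these pairs passed the threshold, and by Spearman's rho 5 did, the same 3 among them (permutation test within groups, 100000 resamples, two-sided, Benjamini-Hochberg over 36 pairs). Ppp1r3b and Gys2 moved in opposite directions, with a Pearson r of -0.666 (permutation p = 2e-05, adjusted 0.00072) and a Spearman rho of -0.654 (permutation p = 5e-05, adjusted 0.0018). The r was -0.401 at baseline, -0.741 in controls and -0.912 with quercetin, -0.611 without the 2 mice farthest from the median, and -0.683 with the slide removed. Within the quercetin group, r was -0.44 among the 6 mice with low Ppp1r3b and -0.955 among the other 6. These sets were split by Ppp1r3b itself after its values were seen. The low set spanned only 9.5 to 9.88 in Ppp1r3b, against 10.35 to 11.22, so these r values are not compared with each other. Gys2 and Gbe1 moved together, with a Pearson r of 0.597 (permutation p = 0.00044, adjusted 0.00528) and a Spearman rho of 0.625 (permutation p = 0.00017, adjusted 0.00306). This r was 0.824, 0.452 and 0.302 in the baseline, control and quercetin group, 0.533 without the 2 farthest mice, and 0.659 with the slide removed, but with loess on the scanner signals it was 0.452 and no longer past the threshold (permutation adjusted p = 0.085). With the replicate number removed it was 0.374, also not past the threshold (permutation adjusted p = 0.218). Baseline replicates 2, 3, 4 and 6, which stood apart in Dbp as described below, lay below their group mean in both genes. The baseline r of this pair is therefore not separate from the replicate number either.

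Pygl and Gbe1 were the remaining pair, with a Pearson r of 0.634 (permutation p = 0.00025, adjusted 0.0045) and a Spearman rho of 0.447 (permutation p = 0.00663, adjusted 0.0477). In this pair a single mouse decided the call. Without quercetin replicate 4, which was low in both genes, r was 0.508 and no longer past the threshold (permutation adjusted p = 0.0634), and within the quercetin group r went from 0.784 to -0.496. In the baseline and the control group r was 0.73 and 0.392. Ppp1r3c and Ppp1r3b, both targeting subunits, had r = 0.32 over 36 mice (permutation adjusted p = 0.269), with 0.765 at baseline, 0.001 in controls and 0.271 with quercetin. The pairs that passed by Spearman's rho and not by Pearson's r were both with Phkg2. Ppp1r3b and Phkg2 had a rho of 0.458 (permutation adjusted p = 0.0477) and an r of 0.363 (permutation adjusted p = 0.197), and Ppp1r3c and Phkg2 had a rho of 0.481 (permutation adjusted p = 0.0477) and an r of 0.403 (permutation adjusted p = 0.146). Ppp1r3d and Pygl passed only with the slide removed, where r was -0.506 (permutation adjusted p = 0.00999), against -0.425 without this step (permutation adjusted p = 0.0682). Ppp1r3c and Gys2 had r = -0.161 (permutation adjusted p = 0.62).

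**Figure D4:**
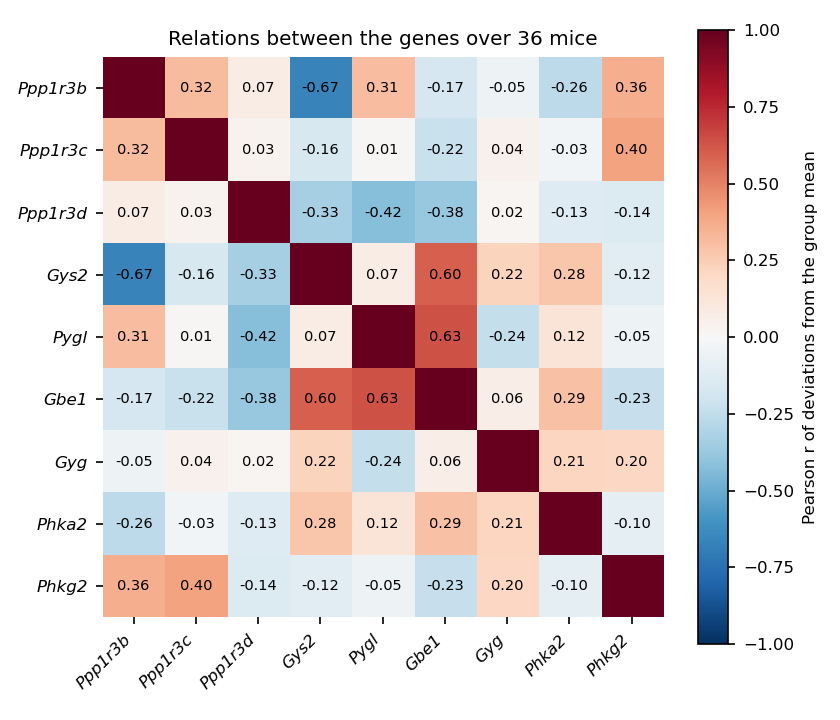
Pearson r of the deviations from the group mean over 36 mice for every pair of the 9 genes (brightest probe), from blue (-1) through white to red (1). The cell of Ppp1r3b and Gys2 holds -0.67, those of Gys2 with Gbe1 and Pygl with Gbe1 hold 0.6 and 0.63, and the row of Ppp1r3c holds no r above 0.403 or below -0.223.

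Clock genes differed between the quercetin and the control group as well, and their values are given beside Gys2 and Ppp1r3c. Arntl, which encodes the core clock activator BMAL1, had a mean log2 value of 8.17 ± 0.79 (SD, n = 12) in the baseline, 8.78 ± 0.46 (SD, n = 12) in the control and 7.78 ± 0.53 (SD, n = 12) in the quercetin group. Dbp, an output gene of the clock, had 15.43 ± 1.06 (SD, n = 12), 15.05 ± 0.55 (SD, n = 12) and 15.97 ± 0.45 (SD, n = 12). Quercetin minus control was -1 for Arntl (standard error 0.19) and 0.92 for Dbp (standard error 0.19). Neither gene was called against the baseline group. For Arntl the limma adjusted p was 0.0695 for control minus baseline and 0.338 for quercetin minus baseline. For Dbp it was 0.39 and 0.264. The clock genes were listed because they differed in this comparison in earlier results of these data. Their calls between the quercetin and the control group therefore describe the list and test nothing. Of 10 genes that are high around dusk, 5 were called higher in the quercetin than in the control mice and 0 lower, and 2 were called between the control and the baseline group, both lower in the control group. Of the 4 measured genes that are high around dawn, quercetin minus control was called in 3, 2 lower and 1 higher, and 1 was called between the control and the baseline group, higher in the control group. Between the quercetin and the baseline group 0 genes of either list were called. Among all genes 2.25% were called between quercetin and control, 21.2% between control and baseline and 12.8% between quercetin and baseline. The part of the clock genes in the differences of Gys2 and Ppp1r3c was not tested, and the hour at which each mouse was killed is not given in the sources used here.

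The relations of Gys2 and Ppp1r3c to Arntl and Dbp were tested over the 24 control and quercetin mice, since 4 baseline mice stood apart in Dbp (13.75 to 14.23) from the other 8 (15.71 to 16.55). Gys2 deviated together with Dbp, with a Pearson r of 0.693 (permutation p = 0.00019, adjusted over 4 pairs 0.00076) and a Spearman rho of 0.694 (permutation p = 0.0003, adjusted 0.0012). The r was 0.547 in controls and 0.869 with quercetin, 0.612 over both without the 2 farthest mice, and 0.817 among the 8 baseline mice with high Dbp. The 4 baseline mice with low Dbp, replicates 2, 3, 4 and 6, had the lowest Gys2 values of their group, 15.12 to 15.59. Baseline replicates 7 to 12 lay between 16.1 and 16.8 in Gys2. The baseline r is therefore not separate from the replicate number, and the sample titles do not say what the numbers stand for. Gys2 deviated opposite to Arntl, with a Pearson r of -0.567 (permutation p = 0.00525, adjusted 0.0105) and a Spearman rho of -0.561 (permutation p = 0.00631, adjusted 0.0126), and with -0.497 without the 2 farthest mice. For Ppp1r3c neither relation passed the threshold. Its Pearson r was -0.06 with Dbp (permutation p = 0.779, adjusted 0.779) and 0.155 with Arntl (permutation p = 0.491, adjusted 0.655).

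**Figure D5:**
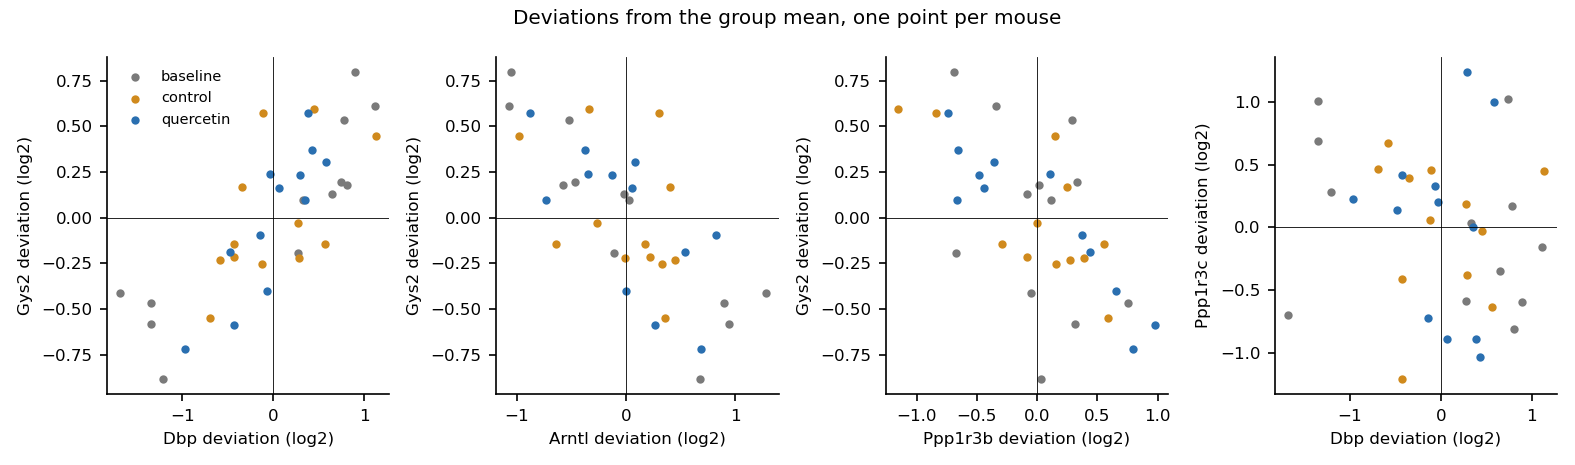
Deviations from the group mean (both axes, log2, brightest probe) of Gys2 against Dbp, Arntl and Ppp1r3b, and of Ppp1r3c against Dbp, with a point per mouse and colours for the groups. Gys2 is high in the mice with high Dbp and low Ppp1r3b, whereas Ppp1r3c shows no such order with Dbp (r = -0.06 over the 24 control and quercetin mice).

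The genes whose deviations were most like those of Gys2 over 36 mice, among 13041 other genes, were Nr1d2 (r = 0.887), Nhlrc2 (0.844), Clmn (0.843), Hook2 (0.84) and Dennd5b (0.828), and the most opposite were Traf3 (-0.824) and Tjp3 (-0.793). Nr1d2 encodes the clock repressor REV-ERB-beta, and its r was 0.948, 0.777 and 0.874 in the baseline, control and quercetin group. The genes most like Ppp1r3c were Ccn1 (r = 0.805), Sp5 (0.731), Nr0b2 (0.713), Tbx3 (0.71) and Epha2 (0.702), and the most opposite were Plk3 (-0.843) and Myc (-0.825). The r of Plk3 was -0.854, -0.807 and -0.887 in the groups. These correlations rank the genes over mice that share slides and groups, and they carry no test. The mice ranked over include the 4 baseline mice with low Dbp and low Gys2. No gene is named for both.

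Markers of other liver cells moved between the baseline and the control group too. Of 4 cholangiocyte markers 3 were called higher in the control group, and their mean log2 value per mouse was 7.7 to 8.38 at baseline, 8.18 to 8.9 in controls and 7.94 to 8.37 with quercetin. One of them, Sox9, was called lower with quercetin than in controls (-0.6, limma adjusted p = 0.000531). Krt19, Krt7 and Epcam were not called there (limma adjusted p = 0.274, 0.508 and 0.89). The erythroid marker Hba-a1 was higher than in the baseline group by 0.93 in the control group (limma adjusted p = 0.000308) and by 1.21 in the quercetin group (limma adjusted p = 4.06e-07). The other measured erythroid marker, Alas2, went the other way, with -0.14 in the control group (limma adjusted p = 0.249) and -0.26 in the quercetin group (limma adjusted p = 0.0172). The 6 Kupffer cell markers all had positive differences, with a median of 0.27 for control minus baseline and 0.25 for quercetin minus baseline, of which limma called 0 and 4 had an unadjusted p under 0.05 in each. Of 5 stellate cell markers 0 were called in any comparison, with 0 at an unadjusted p under 0.05. The share of all genes with such an unadjusted p is not given here. Nothing is therefore read from the Kupffer and stellate cell counts at that threshold. Among 5 endothelial markers 1, Pecam1, was called, lower in the control than in the baseline group (-0.34) and higher with quercetin than in controls (0.38). Most of the list went the other way. Of the 5, 3 lay above 0 for control minus baseline (median 0.075), and 3 lay below 0 for quercetin minus control (median -0.016). Of all genes, 21.2% were called between control and baseline, 12.8% between quercetin and baseline and 2.25% between quercetin and control. These marker genes were named after their values were seen. The part of these cells in the differences of the 9 genes was not tested.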

How the data were processed

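The authors hybridized Cy5-labelled liver cRNA of each mouse with a Cy3-labelled pool of all samples on Agilent arrays and, per the submitters' processing notes, read the scans with Agilent Feature Extraction 10.5.1.1, whereas the study's methods name an earlier version. The deposited scanner files give the intensity of each spot and its local background, not normalized. The authors' table holds log2 values of 23256 spots, corrected for Cy3, scaled to the same median and not background-subtracted. They equal log2 Cy5 minus log2 Cy3 plus the spot's median Cy3 within a median absolute difference of 0.0124. Its spots are those with a signal over 2 times background on average. Spots of a probe were averaged (21781 probes), and a gene is represented by its brightest probe.

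Groups were compared in pairs with limma 3.58.1 in R 4.3.3 (lmFit, then eBayes; p-values two-sided and adjusted by Benjamini-Hochberg). On simulated arrays with 200 changed probes in control against baseline it recovered 191 and called 8 unchanged probes. Of 41174 probes 24375 were named by accession, 6301 by current symbol, 2426 by a single older symbol and 8072 have no symbol. The rule for named genes took every member, the called other glycogen genes, Arntl and Dbp, and the 5 most and 2 least alike genes. Ppp1r3g and the cell type markers named singly fall outside it and were named after their values were seen. The members and lists were chosen with earlier results of these data known. The number of mice limits the precision, and all p-values measure the spread between mice. Alternatives changed the values used, the normalization, the filter, the slide or replicate as a term, the test or the mice. The exclusion of quercetin replicate 4 and the alternatives for the relations between genes were chosen after seeing the data. Python 3.11.15 and matplotlib 3.10.9 drew the figures.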

Additional observations from a re-analysis of the deposited data

How the results depend on the processing

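The numbers of called probes stayed within 1.5 times of the main number under each alternative, except between the quercetin and the control group with the slide as a fixed block, which gave 210 in place of 513. The replicate numbers do not pair the mice, since the correlation of deviations between same-numbered mice had medians of -0.01, 0.061 and 0.033 and exceeded 0.1 in 3 or 4 of 12 pairs. With the replicate block, 360 probes were called between quercetin and control, 4636 between control and baseline and 2372 between quercetin and baseline. In the comparison behind the choice of the genes, where calls only describe the settings, the number called between quercetin and control was 1 of 9, and it was 2 with loess on the scanner signals, with Feature Extraction's processed signals and with quantile normalization (Ppp1r3c and Gys2), 2 with all 36 arrays in one fit (Ppp1r3b and Ppp1r3c), 2 without quercetin replicate 4 (Ppp1r3c and Pygl), and 0 with the slide as a fixed block or the replicate block. Between control and baseline it was 4, and 2 with the slide as a fixed block (Phka2 and Ppp1r3b). It was 3, without Ppp1r3c, with the processed signals, quantile normalization, unfiltered loess, all 36 arrays in one fit and the methods' t-test. With filtered loess it was 4, with Gys2 in place of Ppp1r3c. Between quercetin and baseline it was 2, and 3 under each alternative that called Pygl as well. Of 214 recomputed single-gene differences from the baseline group, 6 passed the threshold in addition, 8 no longer passed it and 9 changed sign, while 10 untested quercetin minus control differences in 3 genes near 0 changed sign. The 9 were all between control and baseline in genes not called there: Pygl from 0.02 to -0.0504 with loess (filtered or not), -0.0145 with the processed signals and -0.036 with quantile normalization, Gbe1 from 0.06 to -0.0111 with loess (filtered or not), and Phkg2 from -0.0007 to 0.0035 with centred arrays, 0.0194 with the slide as a fixed and 0.0014 with the slide as a random block. Ppp1r3d had no value with filtered loess. The cause of these shifts was not tested. Dim probes (Ppp1r3d and the second probes of Ppp1r3c, Pygl and Phka2, 2.52 to 4.97 times background) limit what small differences can be seen.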
